A study of Mus musculus with 20 samples.

Results

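The 10 genes described here are expressed in megakaryocytes and platelets, and they were followed across 3 histone marks in mouse bone marrow cells of 4 genotypes. The genes were *Gp1ba*, *Gp1bb*, *Gp9*, *Itga2b*, *Treml1*, *Pf4*, *Ppbp*, *Vwf*, *Thbs1*, and *Mef2c*, out of 21951 protein-coding genes of the GENCODE annotation of mm10. A peak was counted for a gene when it overlapped the gene body or the 20 kb on either side of it. On mm10, the gene bodies on the plus strand were *Gp1ba* at chr11:70639122-70642036, *Gp9* at chr6:87778072-87779768, *Treml1* at chr17:48359916-48367176, *Pf4* at chr5:90772435-90773383, *Ppbp* at chr5:90768518-90770063, *Vwf* at chr6:125546774-125686679, *Thbs1* at chr2:118111876-118127133, and *Mef2c* at chr13:83504034-83667080. Those on the minus strand were *Gp1bb* at chr16:18620317-18622403 and *Itga2b* at chr11:102453297-102470122. ChIP-Seq of H3K27ac, H3K4me1, and H3K4me3 was done in lineage-negative (Lin-) bone marrow, the fraction left after mature blood cells are depleted, which holds stem cells and progenitors. WT mice carried *Ep300* fl/fl alleles without Cre, *Ep300*Δ/Δ mice carried *Mx1-Cre* with *Ep300* fl/fl, *Tet2*-/- mice carried *Ep300* fl/fl with *Tet2*-/-, and *Ep300*Δ/Δ*Tet2*-/- mice carried all of these. The last 3 are called *Ep300*-deleted, *Tet2*-null, and doubly deficient here. All groups shared the C57BL/6 background, the floxed *Ep300* alleles, and treatment with poly(I:C), which switches on *Mx1-Cre* in blood cells and also in other tissues that respond to interferon. *Tet2* was absent from all cells of the *Tet2*-null mice, not from blood cells alone. Per the study's methods, poly(I:C) was given to young adult mice, while the labels do not give the age at which these cells were taken or whether marrow was pooled. The peak lists hold no value over the deleted *Ep300* exons, so the deletion was not checked.

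Each genotype and mark had 1 library, made from 5 μg of chromatin. No difference between genotypes could therefore be set against replicate error, no test was made, and the comparisons describe 12 peak lists. The lists held 29659 H3K27ac peaks for WT, 22727 for *Ep300*-deleted, 24539 for *Tet2*-null, and 18327 for doubly deficient. They held from 90738 to 107392 peaks of H3K4me1 and from 25012 to 27807 peaks of H3K4me3. Sequencing depth is unknown from peak lists, and a longer list can hold more peaks near any gene. Fold enrichment, the signal of a peak over total H3, was compared only within a list, as the percentage of that list's peaks with a lower fold. Such a rank depends on the length and makeup of its list, so ranks in different lists are set side by side and are not amounts.

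Megakaryocytes arise from stem cells and progenitors that share features with the erythroid line, and they shed platelets. Platelets adhere through the GPIb-IX receptor, aggregate through the integrin αIIbβ3, and release proteins stored in granules. H3K4me3 marks promoters, H3K4me1 marks enhancers and the flanks of promoters, and H3K27ac, which p300 and its relative CBP deposit, marks the active forms of both. Factors of the GATA, ETS, and RUNX families act at many megakaryocyte genes.

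The promoters of 8 of the 10 genes were found in the RefSeq promoter table for GRCm38.p6, the same assembly as mm10. For 6 genes, the 250 bases before the RefSeq start are printed 5′ to 3′ on the gene's strand, because the marks at these starts are compared between lists in what follows. They lie at chr11:70638872-70639121 on the plus strand for *Gp1ba*, chr6:87777820-87778069 on the plus strand for *Gp9*, chr11:102469884-102470133 on the minus strand for *Itga2b*, chr17:48359666-48359915 on the plus strand for *Treml1*, chr5:90772185-90772434 on the plus strand for *Pf4*, and chr5:90768268-90768517 on the plus strand for *Ppbp*. Capitals mark matches on either strand to GATA words (AGATAA or TGATAA), ETS words (AGGAAG or CGGAAG), or the RUNX word (TGTGGT); no 2 matches overlapped.
Gp1ba: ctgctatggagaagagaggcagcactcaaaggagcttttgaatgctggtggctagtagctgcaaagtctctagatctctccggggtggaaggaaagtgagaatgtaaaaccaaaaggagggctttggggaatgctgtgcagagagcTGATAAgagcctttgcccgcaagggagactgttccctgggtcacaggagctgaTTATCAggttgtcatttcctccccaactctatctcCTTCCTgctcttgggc
Gp9: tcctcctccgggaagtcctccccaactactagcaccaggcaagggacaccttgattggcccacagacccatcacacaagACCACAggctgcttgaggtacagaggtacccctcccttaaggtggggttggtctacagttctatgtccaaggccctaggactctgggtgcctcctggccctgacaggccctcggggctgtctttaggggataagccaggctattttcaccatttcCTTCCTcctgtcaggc
Itga2b: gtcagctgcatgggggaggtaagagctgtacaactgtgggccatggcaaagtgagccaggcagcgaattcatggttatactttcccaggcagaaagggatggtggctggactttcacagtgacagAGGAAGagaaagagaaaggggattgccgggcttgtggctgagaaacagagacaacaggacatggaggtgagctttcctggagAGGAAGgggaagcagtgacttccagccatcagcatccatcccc
Treml1: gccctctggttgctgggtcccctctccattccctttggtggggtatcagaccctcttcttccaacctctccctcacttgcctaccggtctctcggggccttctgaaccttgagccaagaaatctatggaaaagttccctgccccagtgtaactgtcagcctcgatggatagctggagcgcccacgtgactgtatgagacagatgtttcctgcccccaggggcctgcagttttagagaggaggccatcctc
Pf4: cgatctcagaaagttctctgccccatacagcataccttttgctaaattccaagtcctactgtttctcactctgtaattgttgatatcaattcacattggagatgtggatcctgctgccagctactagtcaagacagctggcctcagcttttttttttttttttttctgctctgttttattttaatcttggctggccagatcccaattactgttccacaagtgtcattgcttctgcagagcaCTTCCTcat
Ppbp: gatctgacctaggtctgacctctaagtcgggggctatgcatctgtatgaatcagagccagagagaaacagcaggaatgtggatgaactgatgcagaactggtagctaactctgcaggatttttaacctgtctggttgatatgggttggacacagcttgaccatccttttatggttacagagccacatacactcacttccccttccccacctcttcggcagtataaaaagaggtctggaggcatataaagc

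An ETS word lay in 4 of these 6 promoters, beginning 9 bases before the RefSeq start in *Pf4*, 16 bases before it in *Gp9* and in *Gp1ba*, and 43 and 125 bases before it in *Itga2b*. The RefSeq start of *Itga2b* lies inside the GENCODE gene body given above. Its printed promoter is thus almost wholly within that body, and both ETS words lie downstream of the first GENCODE start. *Gp1ba* alone of the 6 held GATA words, which began 104 and 51 bases before the start. *Gp9* alone held the RUNX word, 171 bases before the start, and *Ppbp* and *Treml1* held none of the words. Of all 32841 promoters of that length in the table, 39.2% held an ETS word, 16.6% a GATA word, and 14.0% the RUNX word. Among the 10 entries for the 8 genes, 7 held an ETS word, 1 a GATA word, and 1 the RUNX word. *Mef2c* supplied 3 of the entries. A match describes the letters and not a bound site. The printed promoter of *Itga2b* lay under an H3K27ac peak in all 4 lists, that of *Gp1ba* in the *Tet2*-null and doubly deficient lists, that of *Gp9* in the WT and *Ep300*-deleted lists, and that of *Pf4* in the *Tet2*-null list. Those of *Treml1* and *Ppbp* lay under none.

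H3K4me3 was present near a start of nearly all of these genes in every genotype, whereas H3K27ac was present near the starts of 5 to 8 of them. A peak within 3 kb of any annotated start of the gene was counted as a peak at its start. For H3K4me3 the count was 9 of 10 genes in WT, 9 in *Ep300*-deleted, 9 in *Tet2*-null, and 10 in doubly deficient cells. Among all protein-coding genes the corresponding shares were 61.9%, 63.1%, 62.3%, and 62.6%. The same 9 genes had the mark in all 4 lists, a pattern that 60.1% of all protein-coding genes showed. *Ppbp* was the exception, with a single peak in the doubly deficient list whose fold of 2.56 exceeded 1.09% of that list and whose −log10 *q* of 1.0 did not meet the stated *q* of 0.05.

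For H3K27ac, the count of genes with a peak at the start was 5 of 10 in WT, where 47.3% of all protein-coding genes had one. It was 6 in *Ep300*-deleted cells against 44.9% of all genes, 6 in *Tet2*-null cells against 46.4%, and 8 in doubly deficient cells against 43.1%. *Itga2b*, *Gp1ba*, *Gp9*, *Vwf*, and *Mef2c* had a peak in all 4 lists, as did 40.0% of all genes. *Ppbp* and *Gp1bb* had one in no list, as did 49.6% of all genes. *Pf4* lacked one in WT only. *Treml1* and *Thbs1* had one in the doubly deficient list only, although that list was the shortest of the 4; 109 protein-coding genes, or 0.497%, had that pattern. The counts by genotype lay near the share over all genes in WT and above it in the doubly deficient list, but with 10 genes and 1 library each the difference has no error to be set against.

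The calls at the start were sensitive to peak strength and to distance. With only peaks of a −log10 *q* of at least 5, 5 genes kept a start peak in the WT list, 2 in the *Ep300*-deleted list, 4 in the *Tet2*-null list, and 6 in the doubly deficient list. The shares over all protein-coding genes at that strength were 45.0%, 38.7%, 44.6%, and 40.7%, also lowest in the *Ep300*-deleted list. That list was weaker as a whole, with a median fold of 5.93 against 6.58 to 6.94 in the others and 7.17% of its peaks short of the stated *q*, and the part of this in the counts was not tested. Peaks of any strength within 1 kb of a start, rather than 3 kb, gave 5 genes in WT and 6 in *Ep300*-deleted cells. The counts were then 5 in *Tet2*-null and 6 in doubly deficient cells, where *Vwf* and *Thbs1* had no peak that close. The share over all genes was not computed at that distance.

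**Figure D1:**
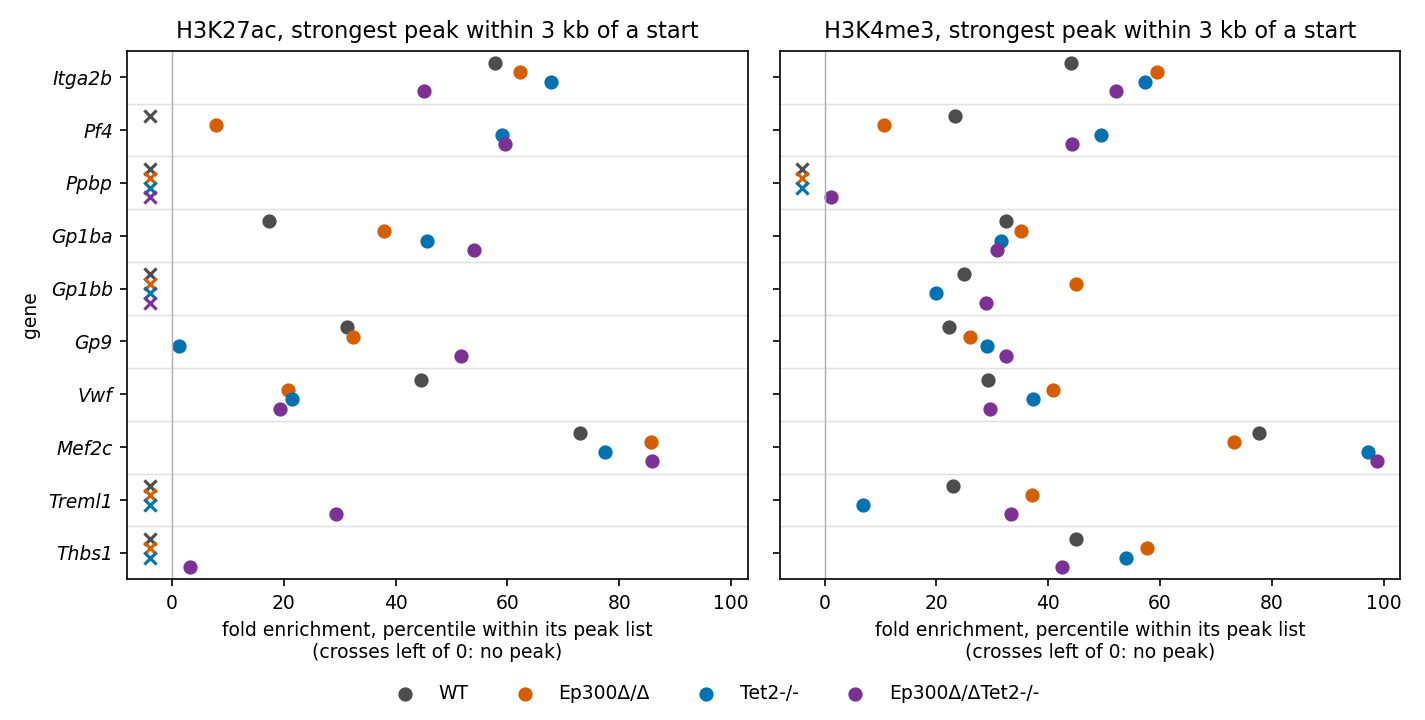
Strongest H3K27ac (left) and H3K4me3 (right) peak within 3 kb of any start of each gene, plotted as the percentage of its own list with a lower fold enrichment; 1 library per point, and crosses mark genes with no such peak. H3K4me3 is missing only for *Ppbp* in 3 lists, whereas H3K27ac is missing in all 4 for *Ppbp* and *Gp1bb* and in 3 for *Treml1* and *Thbs1*.

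The 3 subunits of the GPIb-IX complex, which binds von Willebrand factor, differed in their acetylation. *Gp1ba*, the subunit that carries the binding site, had an H3K27ac region at its start in all 4 lists, chr11:70638569-70639792. Its strongest start peak had a fold above 17.4% of the list in WT, 38.0% in *Ep300*-deleted, 45.6% in *Tet2*-null, and 54.0% in doubly deficient cells. Its start peaks together were 233 bp wide in WT, 412 bp in *Ep300*-deleted, 911 bp in *Tet2*-null, and 1052 bp in doubly deficient cells. The WT value was the lowest by both measures, and the doubly deficient value the highest. One of the 2 *Ep300*-deleted start peaks, of 199 bp, had a −log10 *q* of 1.06, short of the stated *q*. The other 5 to 6 H3K27ac peaks of the window in each list lay at the starts of the neighbors *Slc25a11*, *Rnf167*, *Pfn1*, and *Eno3*.

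*Gp9*, the subunit that stabilizes the complex at the surface, had 2 acetylated regions at its start. The upstream one, chr6:87775659-87776781, was joined from peaks of all 4 lists, but the *Tet2*-null peak, chr6:87776236-87776781, did not overlap the WT peak, chr6:87775745-87776070, or the *Ep300*-deleted one. The WT peak had a fold above 31.3% of its list and the *Ep300*-deleted peak above 32.4%. The *Tet2*-null peak was above 1.19% of its list, and the stronger of 2 doubly deficient peaks was above 51.6%. The region over the start itself, chr6:87777604-87778802, was 1 peak of 988 bp above 27.3% of the WT list, 3 short peaks above at most 29.6% of the *Ep300*-deleted list, and 1 peak of 712 bp above 13.2% of the doubly deficient list. It was absent from the *Tet2*-null list. H3K4me1 covered the *Gp9* start in every list, with 3829, 3870, 3872, and 3710 bp in WT, *Ep300*-deleted, *Tet2*-null, and doubly deficient cells. Between 11519 and 13113 bp downstream of the *Gp9* start, the start of *Rab43* held 3 H3K27ac regions in WT, 1 in *Ep300*-deleted, 1 in *Tet2*-null, and 0 in doubly deficient cells. The *Ep300*-deleted peak there had a −log10 *q* of 1.04, short of the stated *q*.

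*Gp1bb*, which is disulfide-linked to the *Gp1ba* product, had no H3K27ac peak anywhere in its window of 42.09 kb in any genotype. It still carried H3K4me3 at its start in all 4 lists, at folds above 24.9% of the list in WT, 45.0% in *Ep300*-deleted, 19.9% in *Tet2*-null, and 28.9% in doubly deficient cells. The region was chr16:18620052-18622216. H3K4me1 peaks at the start numbered 2, 4, 1, and 3 in the same order. The adjacent gene *Sept5* had H3K4me3 in all 4 lists and likewise no acetylated region.

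*Itga2b*, which encodes the αIIb chain of the fibrinogen receptor and is also known as CD41, kept both of its acetylated regions in all 4 genotypes. The first, chr11:102468621-102470913, spanned the first exon, and the other, chr11:102467335-102468108, lay inside the gene with its middle 2400 bp from the first annotated start. At the first, the strongest peak had a fold above 57.8% of the WT list, 62.2% of the *Ep300*-deleted list, 60.5% of the *Tet2*-null list, and 45.0% of the doubly deficient list. At the other, the corresponding values were 22.7%, 39.9%, 67.8%, and 11.4%, so the *Tet2*-null list ranked it highest and the doubly deficient list lowest. The merged H3K4me3 region, chr11:102466803-102470429, was 3627 bp wide and overlapped both in every list. H3K27ac peaks within 3 kb of the first start together were between 1911 and 2503 bp wide, more than at the first start of any of the other 9 genes in each list.

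*Treml1* encodes a receptor that platelets store in their α-granules and expose on activation. No H3K27ac peak fell in its window of 47.26 kb in WT, *Ep300*-deleted, or *Tet2*-null cells. The doubly deficient list had 1 peak of 664 bp just downstream of the annotated starts, chr17:48359982-48360645. Its −log10 *q* was 7.34, and its fold of 5.19 was above 29.4% of the list. In the same list H3K4me1 at the start came to 5 peaks and 3008 bp, against 1042 bp in WT, 968 bp in *Ep300*-deleted, and 725 bp in *Tet2*-null cells. H3K4me3 at the start was listed in all 4 genotypes and covered 1321 bp in WT, 1357 bp in *Ep300*-deleted, 735 bp in *Tet2*-null, and 1628 bp in doubly deficient cells. All 3 marks thus covered most sequence at this start in the doubly deficient lists.

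Among the secreted proteins, *Pf4* and *Ppbp* are neighboring α-granule chemokine genes on chromosome 5 whose overlapping windows hold the same peaks. The start of *Pf4*, platelet factor 4, had no H3K27ac peak in WT cells. Its strongest peak there had a fold above 7.94% of the list in *Ep300*-deleted, 59.0% in *Tet2*-null, and 59.6% in doubly deficient cells. The merged region was chr5:90772382-90773243. H3K4me3 at the start had folds above 23.3% of the list in WT, 10.6% in *Ep300*-deleted, 49.5% in *Tet2*-null, and 44.2% in doubly deficient cells. H3K4me1 at the start was already present in WT, where its strongest peak had a fold of 7.72, above 91.3% of the list. The strongest peak within 3 kb ranked above 83.3%, 95.4%, and 88.5% in *Ep300*-deleted, *Tet2*-null, and doubly deficient cells. In *Ep300*-deleted cells this was a different peak, with its middle 2487 bp from the nearest start. Closer to the start, at chr5:90771751-90773242, the *Ep300*-deleted folds were 5.61 and 4.87.

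Centered 17548 bp downstream of the first *Pf4* start, the region chr5:90789471-90790494 overlapped an exon of a neighboring gene and lay more than 3 kb from any start. It was acetylated in all 4 lists, with folds above 73.5% of the list in WT, 50.5% in *Ep300*-deleted, 49.8% in *Tet2*-null, and 31.6% in doubly deficient cells. The WT peak was 1024 bp wide and the others 272, 382, and 238 bp. H3K4me1 overlapped it in all 4 lists and was strong there, with folds above 99.5% of the list in WT, 84.8% in *Ep300*-deleted, 98.2% in *Tet2*-null, and 97.5% in doubly deficient cells. In WT this was the only H3K27ac peak within 20 kb of either gene. *Ppbp*, the precursor of several platelet chemokines, had no H3K4me1 at its start itself. The peak that fell within 3 kb of it in 3 lists, chr5:90771234-90771542, lay past the end of the gene, between *Ppbp* and *Pf4* and also within 3 kb of a *Pf4* start. It was absent in WT and 288, 279, and 229 bp wide in *Ep300*-deleted, *Tet2*-null, and doubly deficient cells.

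*Vwf* encodes von Willebrand factor, which endothelial cells also make. No list had H3K27ac within 3 kb of its first annotated start. Its start calls came from transcripts that begin inside the gene, 10 annotated starts in all, at chr6:125554753-125554979, chr6:125564666-125565286, and chr6:125565437-125565687, of which the second was listed in all genotypes except *Ep300*-deleted. The strongest acetylation lay in an intron, with its middle 26357 bp from the first start, at chr6:125572326-125573935. This region was listed in every genotype, as 1 peak with a fold above 86.1% of the list in WT, 2 peaks above 42.8% and 49.5% in *Ep300*-deleted, 1 peak above 84.4% in *Tet2*-null, and 1 peak above 77.6% in doubly deficient cells. The *Ep300*-deleted list ranked it lowest, and the doubly deficient list ranked it below the *Tet2*-null list. H3K4me1 and H3K4me3 overlapped the region in all 4 lists. At the first start, H3K4me1 and H3K4me3 were both absent in WT and present in the other 3 lists, H3K4me3 at 339, 356, and 332 bp and H3K4me1 at 315, 778, and 384 bp in *Ep300*-deleted, *Tet2*-null, and doubly deficient cells.

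*Thbs1*, thrombospondin 1, is an adhesive protein of α-granules that many other cells make too. Its H3K27ac was a single weak peak in the doubly deficient list, chr2:118112894-118113583, with a fold of 3.13 above 3.27% of that list and a −log10 *q* of 2.82. H3K4me3 covered its start in all lists, at 2075 bp in WT, 2810 bp in *Ep300*-deleted, 2317 bp in *Tet2*-null, and 3436 bp in doubly deficient cells. It had from 1 to 3 H3K4me1 peaks per list, the fewest of the 10 genes in every list.

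**Figure D2:**
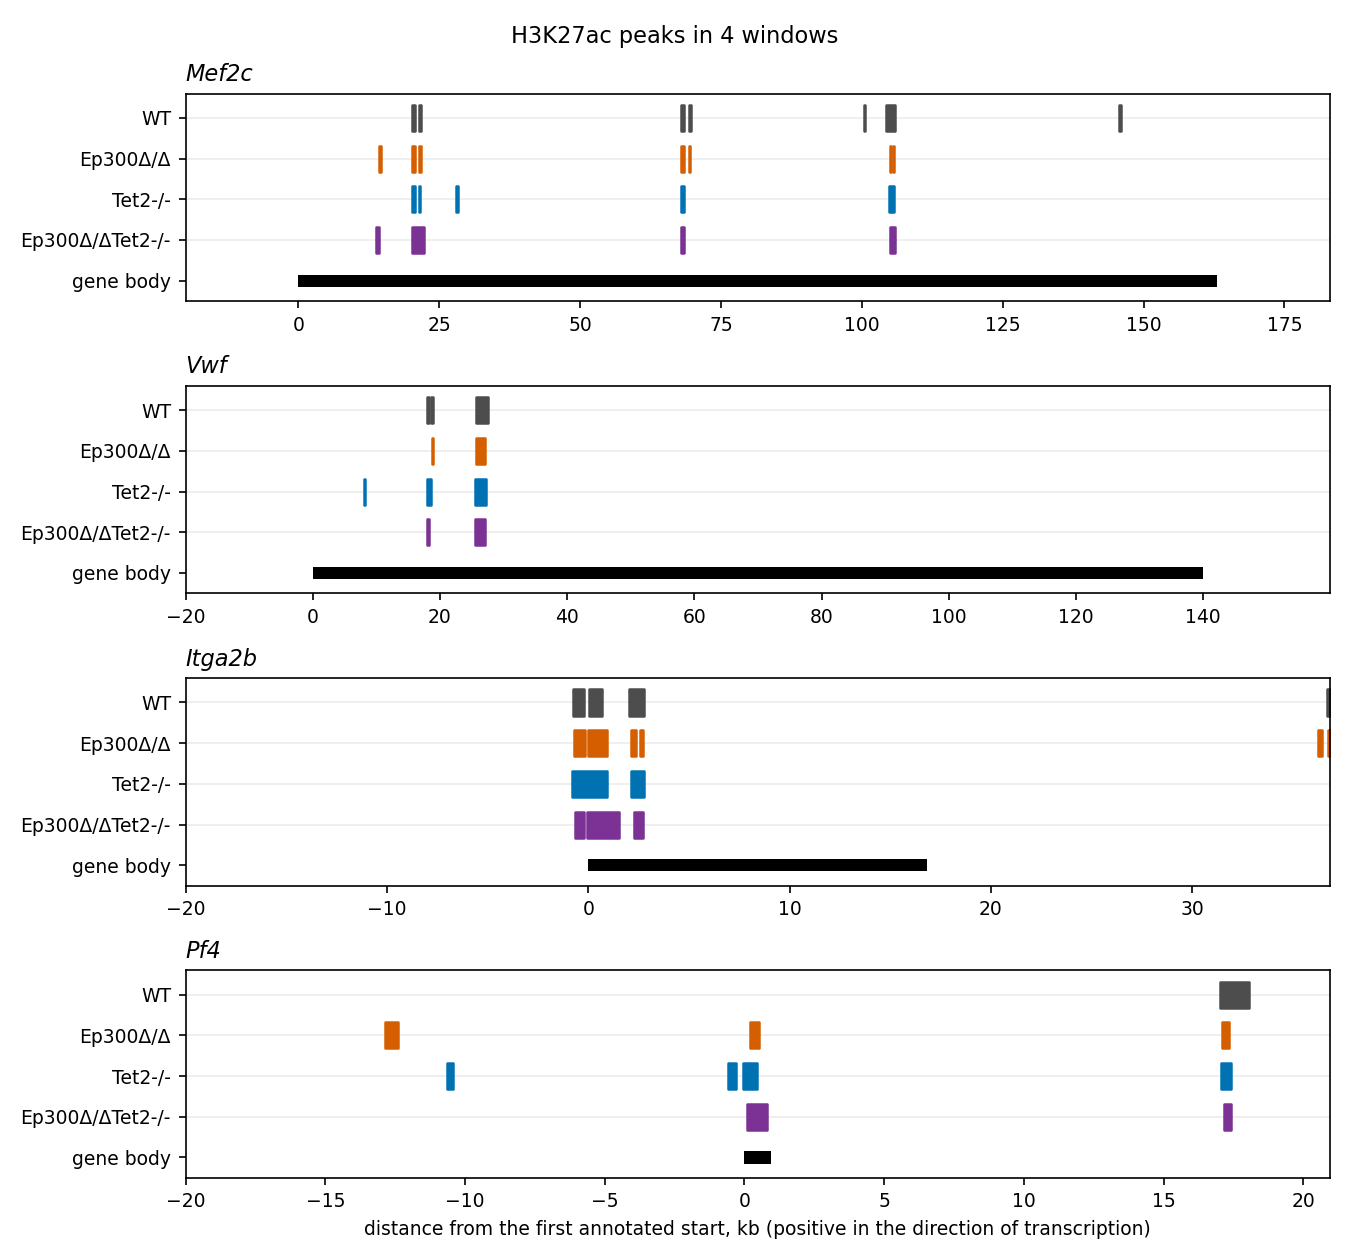
H3K27ac peaks (colored bars) of each genotype along *Mef2c*, *Vwf*, *Itga2b*, and *Pf4* by distance in kb from the first annotated start, with the gene body in black and 20 kb on either side. *Mef2c* and *Vwf* have no bar at their first start, and the late intronic pair of *Mef2c*, centered 105072 and 105653 bp from it, and the bar past the end of *Pf4* recur in all 4 genotypes.

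*Mef2c* encodes a transcription factor of megakaryocytes, B lymphoid cells, and other tissues, and its acetylation lay far from its first annotated start. Its gene body spans 163047 bp and has 27 annotated starts, none of the 3 marks being listed within 3 kb of the first. H3K27ac peaks in the window numbered 9 in WT, 7 in *Ep300*-deleted, 6 in *Tet2*-null, and 7 in doubly deficient cells. Regions in all 4 lists were chr13:83524162-83525183 and chr13:83525304-83526018 under the broad H3K4me3 peak described next, chr13:83571899-83572559 at a later start, and an adjacent pair in an intron, chr13:83608874-83609338 and chr13:83609508-83609866.

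The broad H3K4me3 peak, chr13:83523303-83526642, spanned internal annotated starts and was between 3103 and 3340 bp wide and wider than 97.4% to 98.5% of the peaks in its list. Its fold was above 77.8% of the list in WT, 73.3% in *Ep300*-deleted, 97.3% in *Tet2*-null, and 98.9% in doubly deficient cells. H3K27ac within it covered less sequence in WT, as peaks of 486 and 239 bp, than in the doubly deficient list, where the peaks were 1022, 715, and 306 bp. A further H3K4me3 region, chr13:83517802-83518865, was listed in all 4 genotypes at folds above 47.6%, 62.5%, 70.3%, and 93.4% in WT, *Ep300*-deleted, *Tet2*-null, and doubly deficient cells. H3K27ac appeared there in the *Ep300*-deleted and doubly deficient lists only, as different short peaks of 263 and 461 bp.

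The intronic pair lay 105072 and 105653 bp from the first start and carried H3K4me1 in 4 and 3 of the lists. The first member had folds above 84.0% of the list in WT, 61.7% in *Ep300*-deleted, 86.2% in *Tet2*-null, and 82.9% in doubly deficient cells. The other had 84.0%, 53.6%, 72.2%, and 67.1%. The 2 WT peaks had the same fold of 15.3 and −log10 *q* of 30.9. As at the *Vwf* intron, the *Ep300*-deleted list ranked both regions lowest, and the doubly deficient list ranked both below the *Tet2*-null list. The 200 bases around the WT summits are printed below on the plus strand of GRCm38, because these distal regions kept acetylation in all genotypes; window A is chr13:83609004-83609203 and window B is chr13:83609618-83609817. Capitals again mark the words searched.
Mef2c window A: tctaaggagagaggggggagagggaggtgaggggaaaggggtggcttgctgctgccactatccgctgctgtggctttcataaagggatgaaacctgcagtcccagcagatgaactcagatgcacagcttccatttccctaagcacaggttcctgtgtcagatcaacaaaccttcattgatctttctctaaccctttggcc
Mef2c window B: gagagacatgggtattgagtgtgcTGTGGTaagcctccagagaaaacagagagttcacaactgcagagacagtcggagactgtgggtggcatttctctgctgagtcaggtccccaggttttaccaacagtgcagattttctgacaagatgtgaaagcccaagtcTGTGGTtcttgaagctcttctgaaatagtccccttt

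Window B held the RUNX word at positions 25 and 165 counted from the 5′ end, and window A held none of the words. Over all WT H3K27ac summit windows of this length, 12.9% held the RUNX word, 32.9% an ETS word, and 8.93% a GATA word. In the other lists those shares ranged from 11.2% to 12.2%, from 33.9% to 35.6%, and from 7.63% to 8.23%.

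Away from these shared regions, *Mef2c* varied by genotype. The WT list alone held chr13:83604353-83604602, chr13:83608345-83608691, and chr13:83649738-83649986, which were 250, 347, and 249 bp wide and had the same fold of 4.94 and −log10 *q* of 4.4. The region chr13:83573328-83573666, at another annotated start, was listed in WT and *Ep300*-deleted cells and absent from both lists without *Tet2*. Its fold was above 69.5% of the WT list and 21.9% of the *Ep300*-deleted list.

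**Figure D3:**
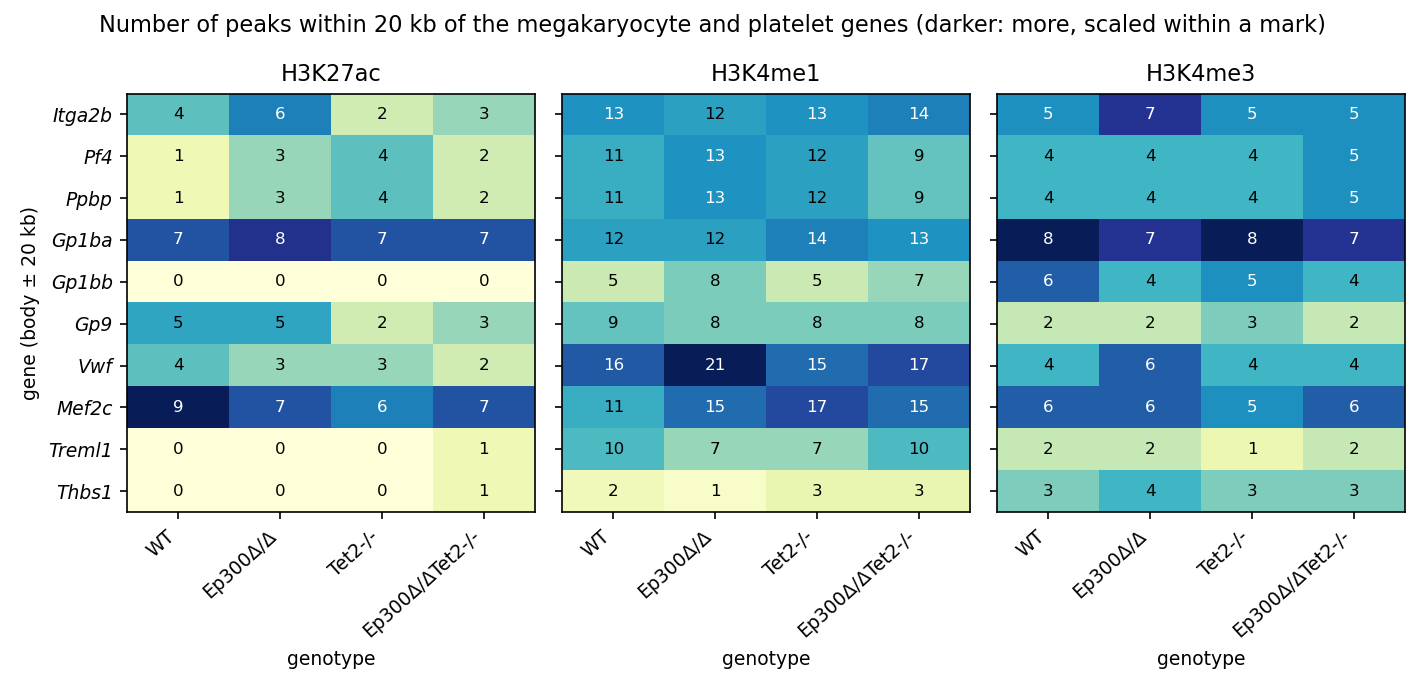
Number of peaks overlapping each gene body or its 20 kb flanks, for each mark (panel) and genotype (column), with 1 library per cell and darker cells for higher counts within a mark. *Gp1bb* has 0 H3K27ac peaks in all 4 genotypes, and *Gp1ba* and *Mef2c* have the most, from 6 to 9.

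Over the 10 windows together, with the shared *Pf4* and *Ppbp* sequence counted once, H3K27ac peaks numbered 30 in WT, 32 in *Ep300*-deleted, 24 in *Tet2*-null, and 26 in doubly deficient cells. Merged over the 4 lists they formed 41 regions, of which 16 drew on all 4 lists, including the *Gp9* region whose peaks did not all overlap, and 16 on 1 list. Of the 41, 19 lay at a start of the gene itself, 13 at a start of another gene, and 9 away from starts. H3K4me1 formed 124 regions, 50 of them in all 4 lists, and H3K4me3 formed 44, 25 of them in all 4.

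The first comparison asked which regions changed when *Ep300* was deleted. From WT to *Ep300*-deleted, 8 of 30 H3K27ac regions, 26.7% (95% Clopper-Pearson interval 12.3% to 45.9%), had no overlapping peak in the second list, against 39.7% of all regions. On the *Tet2*-null background, 6 of 24, 25.0% (9.77% to 46.7%), were absent after *Ep300* deletion, against 37.8% of all regions. The shares were lower than over all regions in both comparisons, and both intervals, which cover counting error only, included the value over all regions. The counts depended on list length: with the peaks of each pair of lists limited to equal numbers by strength, 2 of 23 regions, 8.7% (1.07% to 28.0%), were absent after *Ep300* deletion on the WT background and 1 of 17, 5.88% (0.149% to 28.7%), on the *Tet2*-null background. The share over all regions fell as well, to 26.7% and 23.5%. With only peaks of a −log10 *q* of 5 or more, 9 of 23, 39.1% (19.7% to 61.5%), were absent on the WT background, against 45.8%. On the *Tet2*-null background it was 3 of 19, 15.8% (3.38% to 39.6%), against 33.6%. The 8 regions absent after deletion on the WT background were the 3 WT-only *Mef2c* regions, chr6:125564778-125565092 and chr6:125574031-125574306 in *Vwf*, 2 at *Rab43*, and 1 near *Eno3*. On the *Tet2*-null background the 6 were chr5:90761804-90762014 near *Cxcl5*, chr5:90771863-90772151 just before *Pf4*, chr6:125554753-125554979 in *Vwf*, chr13:83531966-83532352 in *Mef2c*, 1 at *Rab43*, and 1 near *Eno3*.

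In the other direction, 5 of 27 *Ep300*-deleted regions, 18.5% (6.3% to 38.1%), were absent from WT, against 12.8% of all regions. They were chr11:102433667-102433860 at *Grn* in the *Itga2b* window, chr5:90759576-90760047 at *Cxcl5*, chr5:90772623-90772951 at the *Pf4* start, chr11:70639155-70639353 at the *Gp1ba* start, and chr13:83518421-83518683 in *Mef2c*. On the *Tet2*-null background it was 5 of 23, 21.7% (7.46% to 43.7%), against 15.0%. The regions on that background were the single regions of *Treml1* and *Thbs1*, chr6:87778091-87778802 at *Gp9*, and chr13:83517912-83518372 and chr13:83526120-83526425 in *Mef2c*. In lists of equal size the counts were 6 of 27, 22.2% (8.62% to 42.3%), against 18.8% of all regions, and 8 of 24, 33.3% (15.6% to 55.3%), against 21.9%. Among peaks whose −log10 *q* was 5 or more, 0 of 14 regions were gained from WT to *Ep300*-deleted (upper limit 23.2%), against 4.46% of all regions, and 4 of 20 (5.73% to 43.7%) on the *Tet2*-null background, against 11.7%. All of these intervals included the share over all regions.

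From WT to *Tet2*-null, 11 of 29 regions, 37.9% (20.7% to 57.7%), were absent from the second list, against 35.6% of all regions, and 6 of 24, 25.0% (9.77% to 46.7%), were absent from WT, against 20.3%. Both intervals included the shares over all regions. This comparison and that of WT with *Ep300*-deleted share the WT library.

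For H3K4me1, 19 of 81 regions, 23.5% (14.8% to 34.2%), were absent after *Ep300* deletion on the WT background, against 36.7% of all regions. Of the 18 shares plotted by comparison, this was the one whose interval did not include the value over all regions. The regions of a gene lie close together and are not independent. On the *Tet2*-null background it was 20 of 91, 22.0% (14.0% to 31.9%), against 31.1%. In lists of equal size the interval lay below the value over all regions on both backgrounds, at 15 of 74, 20.3% (11.8% to 31.2%), against 31.7%, and 16 of 87, 18.4% (10.9% to 28.1%), against 29.6%. With only peaks of a −log10 *q* of 5 or more it again lay below on both, at 18 of 51, 35.3% (22.4% to 49.9%), against 51.0%, and 20 of 68, 29.4% (19.0% to 41.7%), against 44.1%. For H3K4me3, 3 of 37 regions, 8.11% (1.7% to 21.9%), were absent after *Ep300* deletion on the WT background, against 15.4%, and 4 of 35, 11.4% (3.2% to 26.7%), on the *Tet2*-null background, against 13.3%. At a −log10 *q* of 5 or more these were 6 of 34, 17.6% against 17.8%, and 3 of 32, 9.38% against 15.0%. In lists of equal size they were 2 of 35, 5.71% against 12.5%, and 3 of 33, 9.09% against 12.2%.

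Regions of the H3K4 marks also appeared after *Ep300* deletion. For H3K4me1, 30 of 92 regions, 32.6% (23.2% to 43.2%), were new on the WT background, against 24.1% of all regions, and 20 of 91, 22.0% (14.0% to 31.9%), on the *Tet2*-null background, against 23.4%. For H3K4me3, 7 of 41, 17.1% (7.15% to 32.1%), were new on the WT background, against 11.1%, and 7 of 38, 18.4% (7.74% to 34.3%), on the *Tet2*-null background, against 9.45%. All 4 intervals included the share over all regions. At a −log10 *q* of 5 or more, new H3K4me1 regions were 9 of 42 on the WT background, 21.4% against 21.5%. On the *Tet2*-null background they were 9 of 57, 15.8% against 18.3%. New H3K4me3 regions were then 3 of 31, 9.68% against 6.69%, and 4 of 33, 12.1% against 5.02%. In lists of equal size the H3K4me1 values were 33 of 92, 35.9% against 30.8%, and 20 of 91, 22.0% against 25.4%. The H3K4me3 values were 8 of 41, 19.5% against 12.6%, and 8 of 38, 21.1% against 10.1%.

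**Figure D4:**
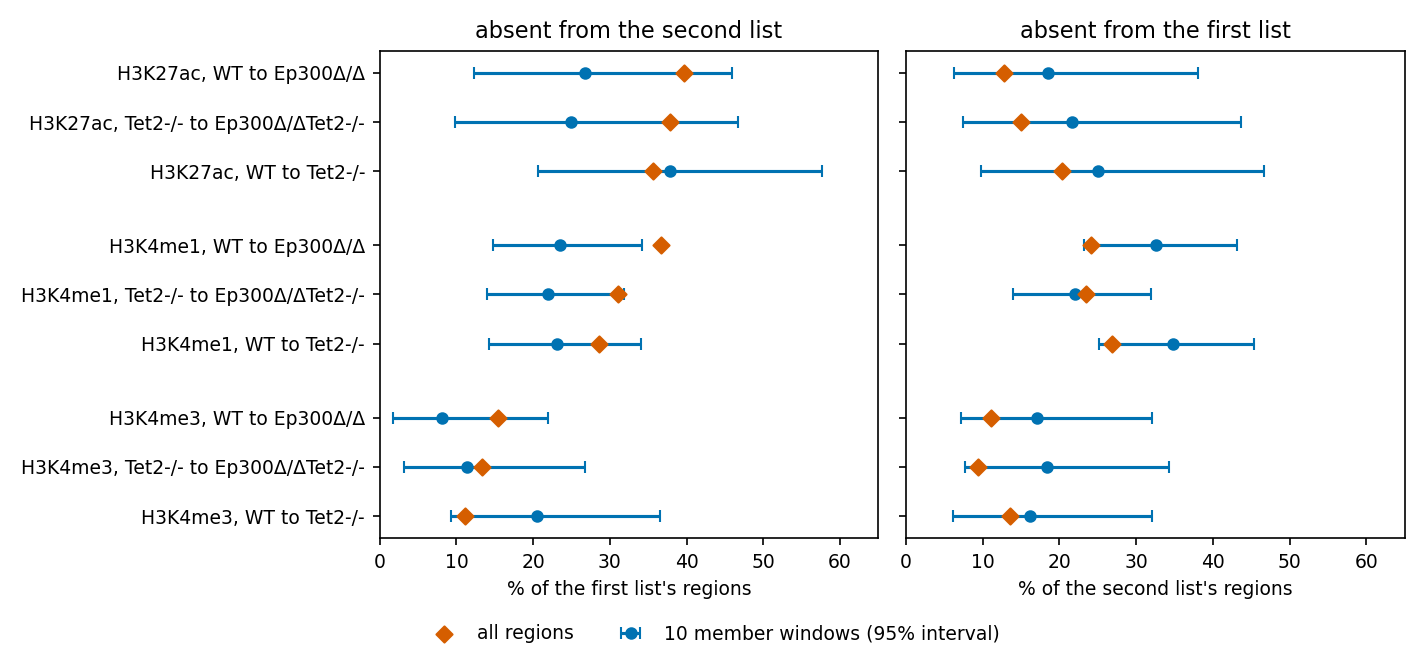
Percentage of regions of the first list absent from the second (left) and of the second absent from the first (right), for the 10 gene windows (circles, with 95% Clopper-Pearson intervals for counting error) and all regions (diamonds). The diamond for H3K4me1 from WT to *Ep300*-deleted in the left panel, at 36.7%, lies beyond the interval that ends at 34.2%.

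H3K27ac peaks near these genes mostly overlapped H3K4 methylation of the same genotype. H3K4me1 overlapped 21 of 30 in WT, 26 of 32 in *Ep300*-deleted, 16 of 24 in *Tet2*-null, and 20 of 26 in doubly deficient cells, or 70.0%, 81.2%, 66.7%, and 76.9%. The shares over all H3K27ac peaks were 69.4%, 61.2%, 61.2%, and 60.3%. H3K4me3 overlapped 17, 23, 18, and 19 of them, or 56.7%, 71.9%, 75.0%, and 73.1%, against 63.5%, 77.2%, 73.7%, and 83.4% of all H3K27ac peaks. Only for H3K4me1 in *Ep300*-deleted cells did the interval, 63.6% to 92.8%, exclude the share over all peaks.

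A list of 17 further platelet genes was counted in the same way. H3K27ac lay at the start of 8 of them in WT, 9 in *Ep300*-deleted, 10 in *Tet2*-null, and 11 in doubly deficient cells, beside 47.3%, 44.9%, 46.4%, and 43.1% of all protein-coding genes. The WT count of 8 was close to the share over all genes. H3K4me3 lay at the start of 14, 16, 15, and 15, beside 61.9%, 63.1%, 62.3%, and 62.6% of all genes. Those with H3K27ac in all 4 lists were *Itgb3*, the partner chain of *Itga2b*, the ADP or thrombin receptors *P2ry1*, *P2ry12*, and *F2rl2*, and *Nbeal2*, *Cd9*, and *Plek*. *Gp6*, the collagen receptor, and *Clec1b*, the podoplanin receptor, had it in no list. Of 5 transcription factor genes of megakaryocytes, *Fli1*, *Nfe2*, *Zfpm1*, and *Mafg* had H3K27ac at the start in all 4 lists, and *Gata1* lacked it in *Ep300*-deleted cells only. All 5 had H3K4me3 in every list.

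The Lin- label could be read against marker genes for other cell types. Of 4 stem and progenitor markers, 4, 4, 3, and 3 had H3K27ac at the start in WT, *Ep300*-deleted, *Tet2*-null, and doubly deficient cells. Of 4 erythroid markers the counts were 4, 4, 4, and 3, and of 5 neutrophil markers 3, 3, 2, and 1. Of 3 macrophage markers they were 2, 2, 2, and 1, and of 4 endothelial markers 1, 1, 2, and 1, with H3K4me3 at all 4 in every list. Of 3 stromal markers they were 1, 0, 1, and 0, of 3 B cell markers 1, 0, 0, and 0, and the 3 T cell markers were at 0 in every list for both H3K27ac and H3K4me3. *Kdr*, *Tek*, *Ly6g*, *S100a8*, and *Adgre1* had no H3K27ac at the start in any list. The erythroid, neutrophil, and macrophage counts were lowest in the doubly deficient list. So was the share over all protein-coding genes, at 43.1% against 47.3% in WT, 44.9% in *Ep300*-deleted, and 46.4% in *Tet2*-null cells. The parts of list length and of cell makeup in the results were not tested. A change in the share of megakaryocyte progenitors among the Lin- cells and a change within such cells cannot be told apart in these libraries.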

How the data were processed

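The authors used cutadapt 1.15 for trimming and BWA 0.7.13 for alignment to mm10, removed duplicates with Picard, filtered by mapping quality and blacklist, called narrow peaks on pseudo-replicates of each library with MACS2 2.1.1.20160309, with H3 as background, and took the peaks of the pseudo-replicates that overlapped. Drosophila chromatin was spiked in at 10 ng, but no scaling by it is described for the peaks. Each deposited peak list gives a fold enrichment over H3, the −log10 of a p-value and of a *q* value, and a score that was not used here. Although a *q* below 0.05 is stated, the deposited H3K27ac lists hold 267, 1630, 199, and 143 peaks that do not meet it (WT, *Ep300*-deleted, *Tet2*-null, doubly deficient). Of 20 samples, the 8 libraries of H3 and H3K27me3 were not analysed here. Total read depth is not given by the peak lists, so it sets no interval here.

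Peaks were assigned to genes by GENCODE coordinates on mm10. For each pair of lists, overlapping peaks (at least 1 bp) were merged into regions, and a region without a peak of one list was counted as absent from it. Shares carry 95% Clopper-Pearson intervals for counting error alone. With 1 library per genotype and mark, no test was made. Promoter sequences came from RefSeq (GRCm38.p6) and summit windows from the GRCm38 genome. All 10 genes are named, with every H3K27ac region that changed after *Ep300* deletion, and of the further platelet genes those in the most and the fewest H3K27ac lists, except 1 that is not reported here. The genes, lists, and markers were chosen with earlier results of these data known. Scripts were tested on simulated data and used Python 3.11.15, NumPy 2.4.6, SciPy 1.17.1, pysam 0.24.0, samtools 1.23.1, and matplotlib 3.10.9.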

Additional observations from a re-analysis of the deposited data

Results flagged for a closer look

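For some windows the number of peaks moved in opposite directions after *Ep300* deletion on the 2 backgrounds, each from 1 library per genotype, and none of these differences was tested. H3K27ac peaks near *Pf4* and *Ppbp*, whose windows hold the same peaks, changed by 2 from WT to *Ep300*-deleted (1 to 3) and by -2 from *Tet2*-null to doubly deficient (4 to 2). H3K4me1 peaks of the same windows changed by 2 (11 to 13) and by -3 (12 to 9). H3K27ac peaks near *Mef2c* changed by -2 (9 to 7) and by 1 (6 to 7), and its H3K4me1 peaks by 4 (11 to 15) and by -2 (17 to 15). H3K4me1 peaks near *Treml1* changed by -3 (10 to 7) and by 3 (7 to 10). H3K4me1 peaks near *Itga2b* changed by -1 (13 to 12) and by 1 (13 to 14).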

How the results depend on the processing

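No paired analysis was possible because each genotype and mark had 1 library, and for the same reason no replicate could be left out. Of 92 counts recomputed under alternatives, 55 stayed within 1.5 times the reported count, 27 fell further, and 10 rose further. With 50 kb on either side of the genes, which takes in more regions, absent H3K27ac regions numbered 15 from WT to *Ep300*-deleted and 22 from WT to *Tet2*-null, new ones 10, 11 (WT to *Tet2*-null), and 8 (*Tet2*-null to doubly deficient), and absent H3K4me1 regions 39 and 36 after *Ep300* deletion on the WT and *Tet2*-null backgrounds. Over the gene bodies alone, which take in fewer, absent H3K27ac regions numbered 5, 7, and 2 (WT to *Ep300*-deleted, WT to *Tet2*-null, *Tet2*-null to doubly deficient), new ones 3 and 3 from WT, absent H3K4me1 regions 8 and 7, and absent H3K4me3 regions 0 and 1. With regions at other genes' starts left out, absent H3K27ac regions after *Ep300* deletion numbered 5 and 3, new ones 3 on the WT background, and absent H3K4me3 regions 1 and 2. In lists of equal size, which shortens the longer list, absent H3K27ac regions numbered 2 and 1, and new ones 8 on the *Tet2*-null background. With peaks up to 500 bp apart taken as shared, absent H3K27ac regions numbered 3 from WT to *Ep300*-deleted and 5 from WT to *Tet2*-null, new ones 3 in *Ep300*-deleted, absent H3K4me1 regions 11 and 13, and absent H3K4me3 regions 2 on the *Tet2*-null background. Where a list had to cover at least 50% of a merged region, new H3K27ac regions numbered 8 on the *Tet2*-null background. With peaks of a −log10 *q* of at least 5, absent H3K27ac regions numbered 6 from WT to *Tet2*-null and 3 on the *Tet2*-null background, new ones 0 in *Ep300*-deleted and 3 in *Tet2*-null, absent H3K4me3 regions 6 from WT to *Ep300*-deleted, and 2 genes had H3K27ac at the start in *Ep300*-deleted; the cause was not tested. Keeping only peaks that meet the stated *q*, chosen after seeing the data, moved no count over the 10 genes by over 1.5 times; for *Gp1ba* it took the 1 region new in *Ep300*-deleted cells to 0. Of 320 counts per gene under the alternatives, 250 stayed within 1.5 times, 48 fell further, and 22 rose further.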

Other observations

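Among the further platelet genes, *Gp5*, the remaining subunit of the von Willebrand factor receptor, had H3K4me3 at its start in all 4 lists and H3K27ac in the *Ep300*-deleted and *Tet2*-null lists. *Mmrn1*, an α-granule protein, and *Rab27b*, which acts in granule release, had H3K4me3 in all 4 lists and H3K27ac in the doubly deficient list alone, the pattern also seen at *Treml1* and *Thbs1*. *Tubb1*, the platelet β-tubulin, had H3K27ac in the *Tet2*-null list alone and H3K4me3 in 3 lists, with WT the exception. *Selp*, which encodes P-selectin, had H3K27ac in both lists with *Ep300* deleted and in neither of the others. These genes were picked after their values were seen, and the strength of their peaks is not given here. For the patterns of *Gp5*, *Tubb1*, and *Selp*, the share over all genes was not computed.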
